A study of Homo sapiens with 14 samples.

Results

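Translation elongation factor genes were followed in K562 cells, a human chronic myeloid leukaemia line with erythroid features. The 7 genes EEF1A1, EEF1B2, EEF1D, EEF1G, EEF2, EEF1E1 and TPT1 were taken by name, not by their levels, out of 24729 genes in the read count table. All 7 passed the filter on low counts, which left 14406 genes for testing. RNA was sequenced in 14 libraries of 5 groups. Cells labelled sgHS2, sgHBG, sgHS1-5 and sgGal4 carried FB-dCas9-BirA, a tagged catalytically dead Cas9 with the biotin ligase BirA, together with guide RNAs. The guides of sgHS2 were aimed at the HS2 enhancer of the β-globin cluster, those of sgHBG at the γ-globin gene promoters, and those of sgHS1-5 at the hypersensitive sites of the cluster's control region. The sgGal4 guide is a non-targeting control. WT cells were unmodified K562, so they lack dCas9, BirA and guides alike. Each guide group had 3 libraries and WT had 2. The labels do not say whether libraries of a group came from separate cultures, nor whether a population was 1 clone or a mixture, so p-values measure only the spread between these libraries, which may be technical.

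Elongation factors carry the ribosome along the mRNA. eEF1A, encoded by EEF1A1 and its paralog EEF1A2, brings aminoacyl-tRNA to the ribosome in its GTP-bound form. The eEF1B complex recharges eEF1A: EEF1B2 and EEF1D encode nucleotide exchange subunits and EEF1G encodes the subunit that anchors them. EEF2 encodes the GTPase that moves the ribosome on by a codon. EEF1E1, also known as AIMP3, bears an elongation factor name but is a scaffold protein of the multi-tRNA synthetase complex. TPT1 encodes TCTP, a small abundant protein reported to bind eEF1A and eEF1B. Most of these mRNAs belong to the TOP class, named for a terminal oligopyrimidine tract at the 5′ end through which their translation is set by mTOR signalling.

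The sequences around the transcription starts are shown because the TOP tract is the feature by which this class is defined. They are from RefSeq (GRCh38.p14) and run from 40 bases before the start through the first 20 transcribed bases, 5′ to 3′ on the gene's strand. The deposited values were made on another build, hg19, and no coordinate of that build is given here. Capitals mark TATA where it lies 22 to 35 bases before the start, and the pyrimidine run where a C within the first 3 bases begins a C followed by at least 4 C or T bases.
EEF1A1, chr6:73521013-73521072, minus strand: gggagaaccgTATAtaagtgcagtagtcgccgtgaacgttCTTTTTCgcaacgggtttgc
EEF1B2, chr2:206159855-206159914, plus strand: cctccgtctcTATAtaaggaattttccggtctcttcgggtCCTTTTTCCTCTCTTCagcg
EEF2, chr19:3985444-3985503, minus strand: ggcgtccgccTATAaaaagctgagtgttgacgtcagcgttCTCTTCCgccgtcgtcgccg
TPT1, chr13:45341164-45341223, minus strand: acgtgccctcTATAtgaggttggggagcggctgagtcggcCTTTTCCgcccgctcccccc
EEF1G, chr11:62573872-62573931, minus strand: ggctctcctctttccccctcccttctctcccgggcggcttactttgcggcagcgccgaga
EEF1E1, chr6:8102529-8102588, minus strand: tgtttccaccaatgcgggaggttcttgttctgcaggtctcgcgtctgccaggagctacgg
In EEF1A1, EEF1B2, EEF2 and TPT1 the TATA began 30 bases before the start and the pyrimidine run began at base 1. The run was 7 bases long in EEF1A1, EEF2 and TPT1 and 16 bases long in EEF1B2. Of 35116 RefSeq promoter windows of the same length read on the gene's strand, 8.81% had such a pyrimidine start, 5.54% had such a TATA and 0.384% had both. EEF1G and EEF1E1 had neither in this window, and the other RefSeq start of EEF1B2, not shown, also had neither. The starts of EEF1D were left out. A match is a description of the letters at the annotated start, which need not be the start used in K562.

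The libraries held 5694448 to 11335831 counted reads. All 17 K562 and erythroid markers had reads in every library, with a summed level of 2291 to 3583 CPM. Summed lymphoid markers ran from 137 to 178 CPM in sgHS2, 383 to 397 in sgHBG, 350 to 419 in sgHS1-5, 137 to 242 in sgGal4 and 168 to 179 in WT. Of the 9 lymphoid markers, CD2 and MS4A1 were at 0 in sgHS2, sgGal4 and WT, MS4A1 was at 0 in sgHBG and none was at 0 in sgHS1-5. The 7 monocyte markers summed to 91.0 to 593 CPM in sgHS1-5, against 47.9 to 208 CPM over the other 4 groups. Of 8 lymphoid markers tested, 2 were higher in sgHS2 than in sgGal4, 3 in sgHBG and 8 in sgHS1-5. Of all genes tested, 14.5%, 12.1% and 20.3% were higher. CD2 and MS4A1, at 0 in sgGal4, could pass the filter only through other groups, so a call of either as higher was fixed in advance. Epithelial markers summed to 702 to 1430 CPM over all libraries, with KRT5 at 0 in every group, and fibroblast markers to 4.82 to 22.7 CPM, with LUM at 0. Their part in the levels of the 7 genes was not tested, and in bulk RNA a different number of cells of a type and a different amount of RNA per cell cannot be told apart. One library stands apart: in sgGal4 1 the longest 20% of transcripts were lower (median log2 deviation from the mean of the 14 libraries -0.58) and the shortest 20% higher (0.61). The next largest deviations of the longest transcripts were -0.20 in sgHS2 2 and 0.17 in sgHS1-5 2. Tests of the 7 genes and of EEF1A2 against sgGal4, and counts over gene lists, are therefore given with and without sgGal4 1.

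**Figure D1:**
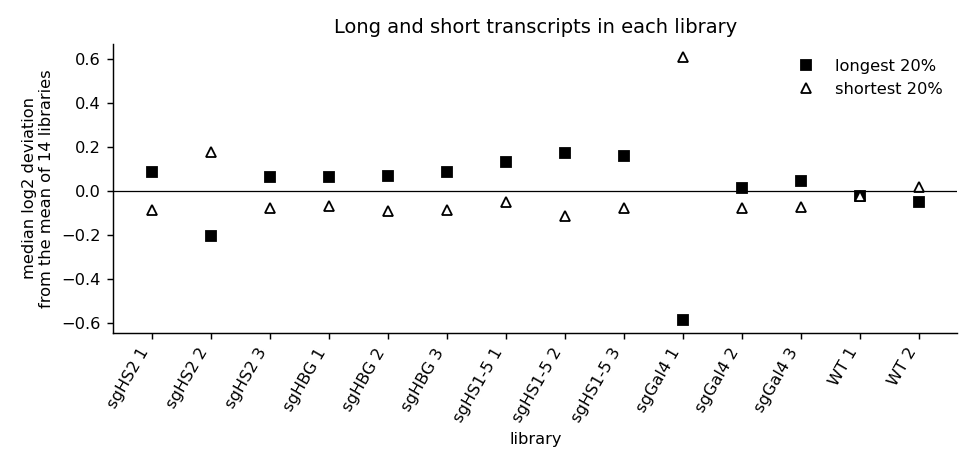
Median log2 deviation of the longest 20% (squares) and shortest 20% (triangles) of transcripts from the mean of the 14 libraries, 1 pair of symbols per library. The pair is far apart in sgGal4 1 (-0.58 and 0.61) and much closer together in every other library.

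EEF1A1 had more reads than any other gene in all 14 libraries, and its share of reads was highest in the sgGal4 cells. It took 2.80, 2.91 and 2.82% of the reads in the sgHS2 libraries, 3.13, 3.05 and 3.02% in sgHBG, 2.37, 2.56 and 2.49% in sgHS1-5, 4.85, 3.81 and 3.84% in sgGal4, and 2.59 and 2.48% in WT. The sgGal4 libraries lay above all others, and the sgHS1-5 libraries overlapped WT. The 95% Wilson interval was 4.84 to 4.86% for sgGal4 1 and 2.47 to 2.49% for WT 2, so counting error is small beside the differences between groups (the intervals cover counting error only). Leaving the globin genes out of the total moved no group mean by more than its spread. Together the 7 genes made up 3.61 to 6.61% of all reads.

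**Figure D2:**
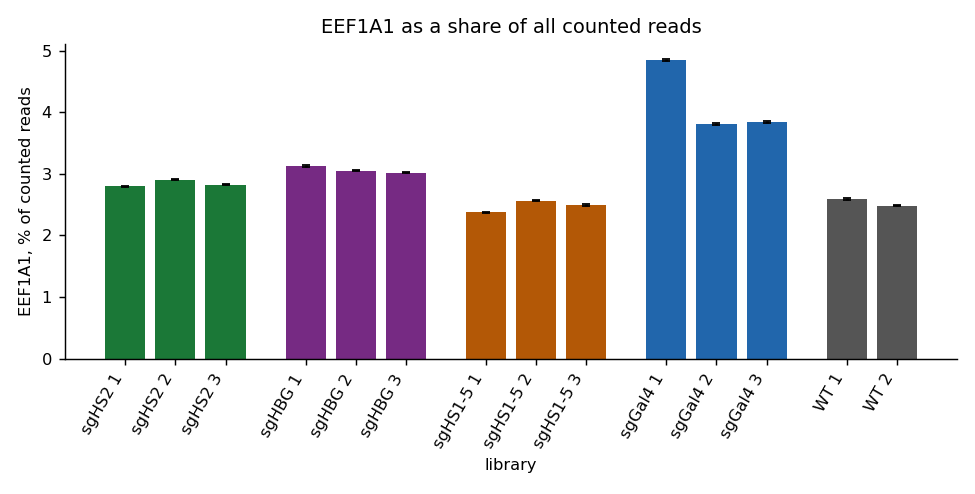
EEF1A1 reads as a percentage of all counted reads in each of the 14 libraries, with 95% Wilson intervals that are narrower than the bar edges. The sgGal4 libraries reach 4.85, 3.81 and 3.84%, and every other library lies between 2.37 and 3.13%.

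In CPM, reads relative to library sizes scaled by TMM, EEF1A1 averaged 28533 ± 1643 in sgHS2, 29792 ± 709 in sgHBG, 22740 ± 919 in sgHS1-5, 48298 ± 14723 in sgGal4 (SD, n = 3 each) and 24824 ± 778 in WT (SD, n = 2). EEF1A1 was lower in each of the 3 targeting groups than with the non-targeting guide. The difference was -0.76 ± 0.17 on the log2 scale (SE, here and below) in sgHS2 against sgGal4 (edgeR quasi-likelihood, Benjamini-Hochberg adjusted p = 0.00467), -0.70 ± 0.17 in sgHBG (adjusted p = 0.0102) and -1.09 ± 0.17 in sgHS1-5 (adjusted p = 0.000381). In sgGal4 it was higher than in WT by 0.96 ± 0.19 (adjusted p = 0.00153). These comparisons share the sgGal4 libraries, so they are not independent of each other.

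The SD of EEF1A1 in sgGal4 came from sgGal4 1, with 65299 CPM against 39696 and 39900 CPM in sgGal4 2 and 3. Without sgGal4 1 the differences were smaller and still called: -0.48 (adjusted p = 1.67e-05) in sgHS2, -0.42 (adjusted p = 9.85e-05) in sgHBG and -0.81 (adjusted p = 1.86e-07) in sgHS1-5 against sgGal4, and 0.68 (adjusted p = 8.84e-07) in sgGal4 against WT. In order of level the groups ran sgGal4, sgHBG, sgHS2, WT and sgHS1-5. Below sgGal4, neighbours did not differ past the threshold: sgHS2 against sgHBG gave -0.06 ± 0.17 (adjusted p = 0.885), sgHS2 against WT 0.20 ± 0.19 (adjusted p = 0.452), and sgHS1-5 against WT -0.13 ± 0.19 (adjusted p = 0.621). The sgHBG libraries gave 0.26 ± 0.19 against WT (adjusted p = 0.316).

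Reads of EEF1A1 are hard to place. RefSeq lists 50 genes named as its pseudogenes, none of which is in the count table, and EEF1A2 is a close paralog. How such reads were assigned is not given in the sources used here.

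Of the 7 genes, 0 were higher and 3 lower in sgHS2 than in sgGal4 (EEF1A1, EEF1B2 and EEF1G), against 14.5% of all tested genes higher and 15.6% lower. In sgHBG against sgGal4, 0 were higher and 2 lower (EEF1A1 and EEF1G), against 12.1% and 12.6% of all genes. In sgHS1-5 against sgGal4, 0 were higher and 5 lower (all but EEF1D and EEF1E1), against 20.3% and 20.2%. In sgGal4 against WT, 4 were higher (EEF1A1, EEF1B2, EEF1G and TPT1) and EEF1E1 was lower, against 22.7% and 19.6%. The median log2 difference of the 7 genes was -0.41, -0.63 and -0.82 in sgHS2, sgHBG and sgHS1-5 against sgGal4 and 0.96 in sgGal4 against WT, beside -0.016, -0.0012, 0.019 and 0.034 over all genes. With sgGal4 1 left out the counts against sgGal4 were 0 higher and 2 lower in sgHS2, 1 higher and 3 lower in sgHBG, and 0 higher and 4 lower in sgHS1-5. At that setting 18.9% of the 14400 genes tested were higher and 19.1% lower in sgHS2, 14.1% and 14.1% in sgHBG, and 23.7% and 22.3% in sgHS1-5. In sgGal4 against WT 26.6% were higher and 24.4% lower.

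Against WT, TPT1 was higher and EEF1E1 lower in sgHS2 (33.1% of all genes called). TPT1 was higher and EEF1E1 and EEF2 were lower in sgHBG (33.6% called), and EEF1E1 and EEF2 were lower in sgHS1-5 (42.9% called). None of the 7 was called in sgHS2 against sgHBG (8.91% of all genes called) by edgeR, DESeq2 or voom, and 0 had an unadjusted edgeR p under 0.05 there. Other edgeR fits made calls. With length offsets 1 was lower, beside 949 genes higher and 1059 lower of all 14406 tested. In a fit of only these groups 1 was lower, beside 1629 genes higher and 1881 lower of 13136. Without sgGal4 1 and sgHS2 2, 2 were lower, beside 1557 genes higher and 1865 lower of 14386. A fit also without sgHS1-5 2 and 3 keeps only 1 sgHS1-5 library, so its calls are not counted here. TPT1 alone was called in sgHS1-5 against sgHBG (25.2% called) and in sgHS1-5 against sgHS2 (38.9% called). In the test of any difference among the 5 groups, 6 of the 7 were called, all but EEF1D, against 67.1% of all genes.

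**Figure D3:**
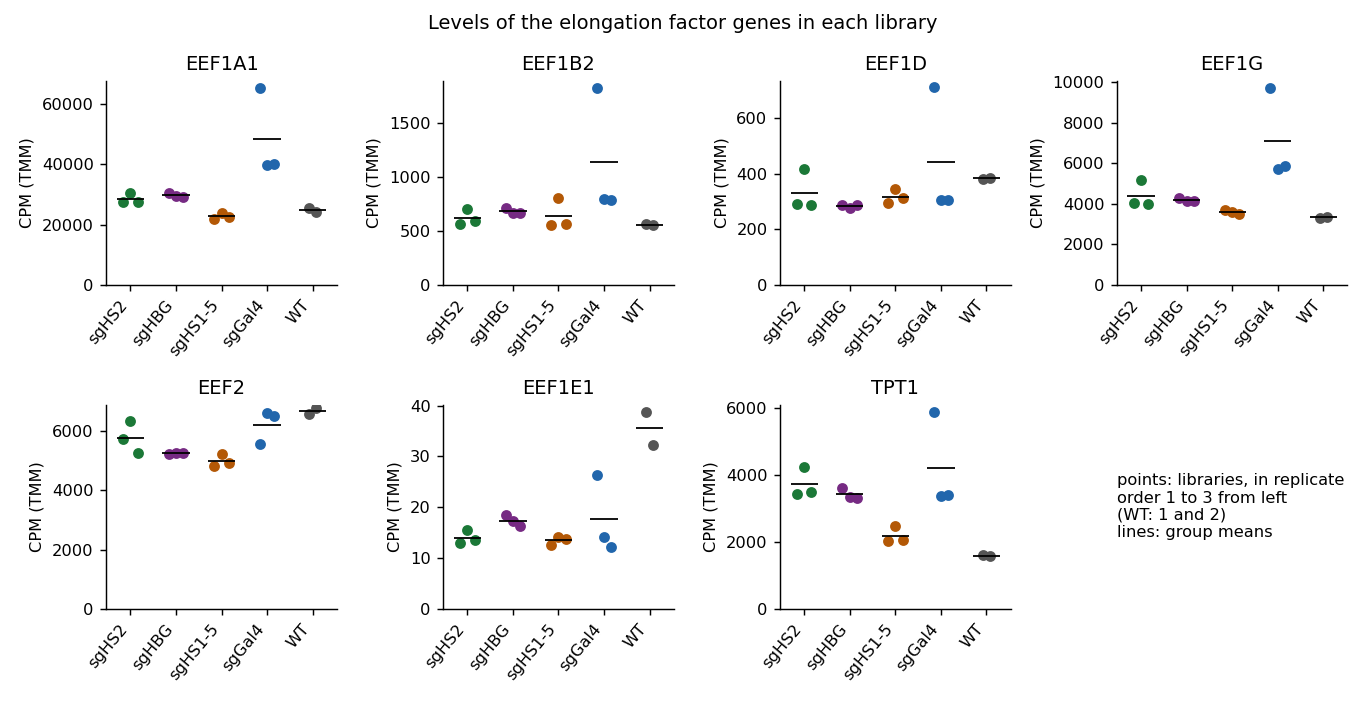
Level of each gene in each library in CPM (TMM), points being libraries and lines group means. The point of sgGal4 1 is the highest of all for EEF1A1, EEF1B2, EEF1D, EEF1G and TPT1 but not for EEF2 or EEF1E1, and the WT points are the highest for EEF1E1 and the lowest for TPT1.

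EEF1G, the anchoring subunit of eEF1B, followed EEF1A1 most closely. It had 4044, 5167 and 3983 CPM in sgHS2, 4304, 4166 and 4146 in sgHBG, 3715, 3620 and 3502 in sgHS1-5, 9729, 5736 and 5849 in sgGal4, and 3326 and 3333 in WT. Every sgGal4 library was above every other library. The log2 difference was -0.69 ± 0.18 in sgHS2 (adjusted p = 0.0117), -0.76 ± 0.18 in sgHBG (adjusted p = 0.00961) and -0.98 ± 0.18 in sgHS1-5 (adjusted p = 0.00125) against sgGal4, and 1.09 ± 0.21 in sgGal4 against WT (adjusted p = 0.00106). The same values with sgGal4 1 left out were -0.40, -0.46, -0.68 and 0.80, all called. With sgHS2 1 left out the sgHS2 difference was not called (adjusted p = 0.0524), nor was it with sgHS2 3 left out (adjusted p = 0.0541).

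EEF1B2, an exchange subunit, was called lower in sgHS2 and sgHS1-5 than in sgGal4, and both calls were lost without sgGal4 1. It had 566, 705 and 588 CPM in sgHS2, 712, 667 and 662 in sgHBG, 552, 806 and 564 in sgHS1-5, 1821, 791 and 789 in sgGal4, and 560 and 554 in WT. The sgGal4 1 value stands alone, and sgHS1-5 2 overlapped the other sgGal4 libraries. The difference from sgGal4 was -0.87 ± 0.27 in sgHS2 (adjusted p = 0.0290), -0.74 ± 0.27 in sgHBG (adjusted p = 0.0656, not called) and -0.82 ± 0.27 in sgHS1-5 (adjusted p = 0.0294). Omitting sgGal4 1 gave -0.35 (adjusted p = 0.0618), -0.22 (adjusted p = 0.270) and -0.30 (adjusted p = 0.0923), none called. In sgGal4 against WT EEF1B2 was higher by 1.03 ± 0.31 (adjusted p = 0.0187), and without sgGal4 1 by 0.51 (adjusted p = 0.0140). With WT 1 or WT 2 left out the difference from WT was not called (adjusted p = 0.0966 and 0.101). The sgHS2 call was lost on omitting sgHS2 1 (adjusted p = 0.0985) or sgHS2 3 (adjusted p = 0.0926). Omitting sgHS1-5 1 (adjusted p = 0.0911) or sgHS1-5 3 (adjusted p = 0.101) ended the sgHS1-5 call.

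EEF1D, the other exchange subunit, was not called in any comparison (adjusted p over the 5 groups 0.255). It had 290, 417 and 287 CPM in sgHS2, 288, 277 and 288 in sgHBG, 294, 343 and 312 in sgHS1-5, 710, 304 and 306 in sgGal4, and 382 and 383 in WT. Apart from sgGal4 1 and sgHS2 2, both of which also had fewer reads on long transcripts, every library with a guide lay below WT. A link between those reads and the EEF1D level was not tested. The log2 difference between sgGal4 and WT was 0.20 ± 0.30 (adjusted p = 0.624), and without sgGal4 1 it was -0.33 (adjusted p = 0.0748). With sgGal4 2 or sgGal4 3 left out EEF1D was lower in sgHBG than in sgGal4 (-0.84, adjusted p = 0.0386 and 0.0377).

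EEF2, the translocation factor, varied little, and its order was unlike that of EEF1A1. It had 5741, 6351 and 5264 CPM in sgHS2, 5228, 5269 and 5261 in sgHBG, 4811, 5234 and 4945 in sgHS1-5, 5566, 6610 and 6511 in sgGal4, and 6579 and 6799 in WT. Here sgGal4 1 was the lowest of its group. EEF2 was lower in sgHS1-5 than in sgGal4 (-0.32 ± 0.11, adjusted p = 0.0289) and than in WT (-0.42 ± 0.12, adjusted p = 0.0110), and lower in sgHBG than in WT (-0.35 ± 0.12, adjusted p = 0.0346). The sgHS2 difference was -0.11 ± 0.10 from sgGal4 (adjusted p = 0.478), and sgGal4 differed from WT by -0.10 ± 0.12 (adjusted p = 0.511). The fit without sgGal4 1 gave, against sgGal4, -0.18 (adjusted p = 0.0519) in sgHS2, -0.32 (adjusted p = 0.00385) in sgHBG and -0.39 (adjusted p = 0.000555) in sgHS1-5.

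The EEF2 calls are small and near the threshold. That of sgHS1-5 against sgGal4 was lost when any sgHS1-5 library or sgGal4 2 or sgGal4 3 was left out (adjusted p from 0.0645 without sgGal4 3 to 0.113 without sgHS1-5 1). The sgHBG call against WT was lost when any single sgHBG or WT library was left out (adjusted p from 0.0854 without sgHBG 3 to 0.167 without WT 2). That of sgHS1-5 against WT was lost without WT 2 (adjusted p = 0.0681) or sgHS1-5 1 (adjusted p = 0.0513).

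TPT1 was higher in the guide-carrying cells than in WT, and less so in sgHS1-5. It had 3429, 4248 and 3502 CPM in sgHS2, 3608, 3363 and 3319 in sgHBG, 2038, 2468 and 2068 in sgHS1-5, 5896, 3374 and 3404 in sgGal4, and 1620 and 1573 in WT. All 12 libraries with a guide were above both WT libraries, and the sgHS1-5 libraries lay between WT and the other groups without overlap. Against WT the log2 difference was 1.22 ± 0.22 in sgHS2 (adjusted p = 0.000976), 1.10 ± 0.22 in sgHBG (adjusted p = 0.00189), 0.46 ± 0.21 in sgHS1-5 (adjusted p = 0.104, not called) and 1.40 ± 0.22 in sgGal4 (adjusted p = 0.000277). Without sgGal4 1 the sgGal4 difference was 1.09 (adjusted p = 3.34e-06).

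The sgHS1-5 cells differed in TPT1 from each other guide group. The difference was -0.95 ± 0.19 from sgGal4 (adjusted p = 0.00217), -0.77 ± 0.19 from sgHS2 (adjusted p = 0.00712) and -0.65 ± 0.19 from sgHBG (adjusted p = 0.0256). Without sgGal4 1 the difference from sgGal4 was -0.63 (adjusted p = 0.000227). The call against sgHBG was lost without any single sgHBG library, sgHS1-5 1 or sgHS1-5 3 (adjusted p from 0.0589 without sgHBG 3 to 0.0950 without sgHS1-5 3). Over 21 alternative settings, these among them, it was lost in 7. In sgHS2 and sgHBG the difference from sgGal4 was -0.18 ± 0.19 (adjusted p = 0.507) and -0.30 ± 0.19 (adjusted p = 0.260). The library kit, as the labels name it, does not mark strand. Reads on any stretch shared by TPT1 and its antisense gene TPT1-AS1 therefore cannot be told apart by strand. TPT1-AS1 had 27 to 55 counted reads a library.

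EEF1E1 went the other way from TPT1: it was lower than in WT in all 4 guide groups. It had 12.9, 15.4 and 13.5 CPM in sgHS2, 18.5, 17.2 and 16.4 in sgHBG, 12.6, 14.1 and 13.8 in sgHS1-5, 26.4, 14.2 and 12.2 in sgGal4, and 38.8 and 32.2 in WT. No guide library reached a WT library. The log2 difference from WT was -1.35 ± 0.24 in sgHS2 (adjusted p = 0.000937), -1.03 ± 0.24 in sgHBG (adjusted p = 0.00502), -1.40 ± 0.25 in sgHS1-5 (adjusted p = 0.000665) and -1.03 ± 0.24 in sgGal4 (adjusted p = 0.00426). Without sgGal4 1 the sgGal4 difference was -1.43 (adjusted p = 1.85e-06), and without WT 1 that of sgHBG was -0.89 and not called (adjusted p = 0.0596). Against sgGal4 no targeting group was called. The sgHBG difference from sgGal4 was -0.0015 ± 0.23 with all libraries and 0.39 without sgGal4 1 (adjusted p = 0.0331).

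EEF1E1 rests on few reads, 78 to 404 a library. Its gene overlaps the readthrough locus EEF1E1-BLOC1S5, which has 0 counted reads in every library while the authors' RPKM table lists up to 6.17 for it. The RPKM and counts of EEF1E1 imply a length of 186 bases, shorter than the 443 bases of its shortest coding transcript in GENCODE. Whether the count table holds only part of its reads, or the RPKM is raised, was not tested. In RPKM too both WT libraries were above every guide library, with 70.2 to 82.1 in sgHS2, 85.7 to 94.8 in sgHBG, 71.9 to 85.7 in sgHS1-5, 84.5 to 133 in sgGal4, and 176 to 177 in WT.

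**Figure D4:**
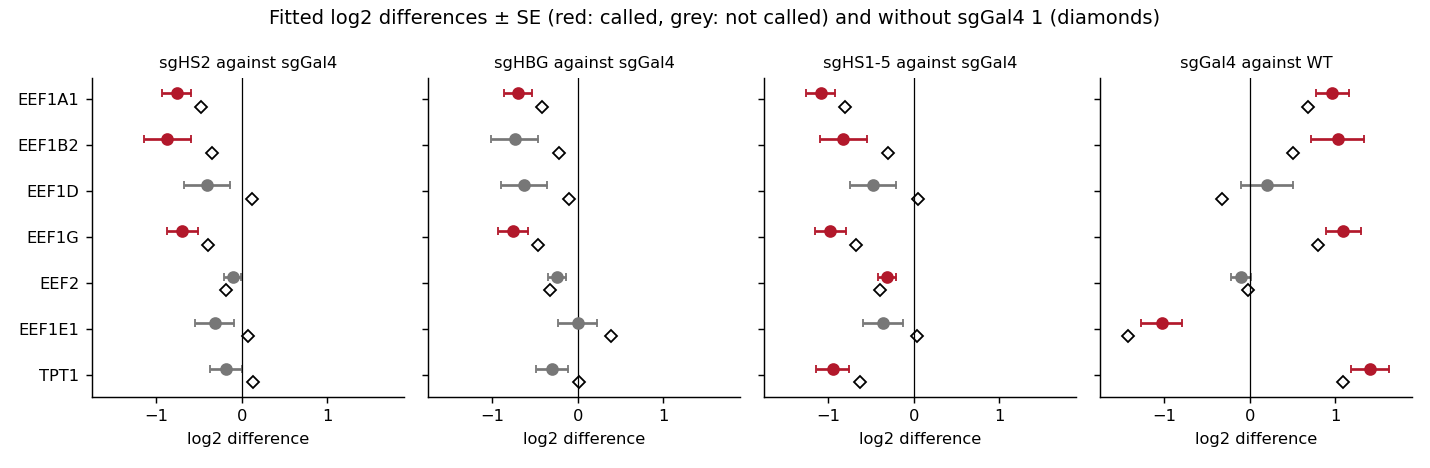
Fitted log2 differences ± SE of the 7 genes in 4 comparisons, red where called and grey where not, with open diamonds for the same fit without sgGal4 1. The EEF1A1 differences of -0.76, -0.70, -1.09 and 0.96 become -0.48, -0.42, -0.81 and 0.68, and those of EEF1B2 against sgGal4 become -0.35, -0.22 and -0.30.

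In the authors' RPKM, EEF1A1 stood highest and EEF1E1 lowest. In sgGal4 the authors' RPKM averaged 13343 ± 3267 for EEF1A1, 5395 ± 1912 for EEF1G, 1880.3 ± 35.3 for EEF2, 1281 ± 682 for EEF1B2, 792 ± 224 for TPT1, 353 ± 223 for EEF1D and 103 ± 26.2 for EEF1E1 (SD, n = 3). In WT the RPKM averaged 7560 ± 105 for EEF1A1, 2525 ± 6.11 for EEF1G, 1918 ± 0.615 for EEF2, 636 ± 0.477 for EEF1B2, 331 ± 0.279 for TPT1, 279.8 ± 2.87 for EEF1D and 177 ± 0.676 for EEF1E1 (SD, n = 2). The means stood in the same order in both groups. In sgHS2, EEF1B2 (693 ± 101) and TPT1 (692 ± 79.7) had RPKM levels that differed by less than their spread. In CPM they were far apart there, at 620 ± 74.9 for EEF1B2 and 3726 ± 453 for TPT1. The length implied for TPT1 by its RPKM and counts was 5382 bases, above the 4814 bases of its longest coding transcript in GENCODE. That implied for EEF2, 3466 bases, was also above its longest, 3164 bases. The length implied for EEF1E1, 186 bases, was below its shortest, 443 bases. For EEF1G it was 1371 bases, below the 1523 bases of its 1 coding transcript. The order is therefore one of RPKM values and does not rank these genes per transcript length.

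**Figure D5:**
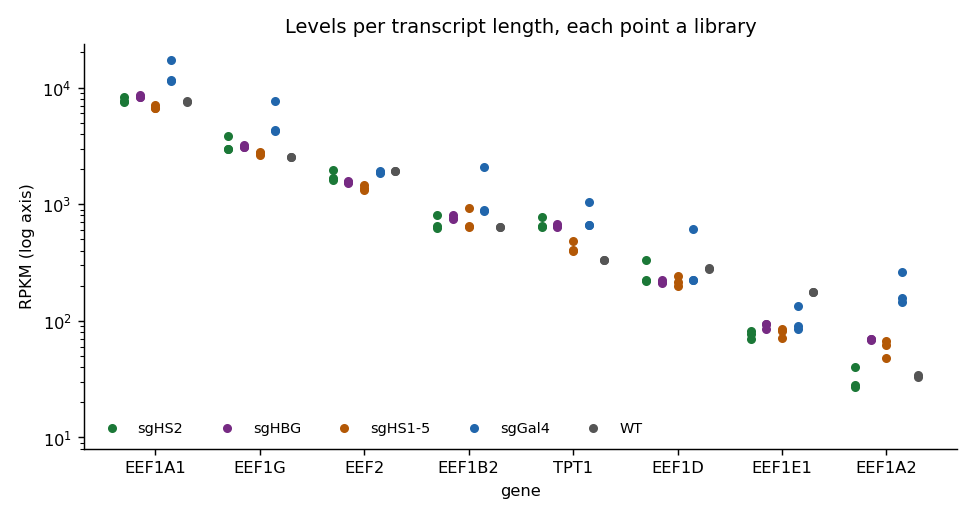
RPKM of the 7 genes and of the paralog EEF1A2 on a log axis, each point a library. EEF1A1 lies highest in every library, and EEF1A2 lies between 27.3 and 264.5, with the sgGal4 libraries on top.

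The balance of EEF1A1 to EEF2 differed between groups. The ratio in RPKM was 4.47 ± 0.23 in sgHS2, 5.41 ± 0.06 in sgHBG, 4.91 ± 0.11 in sgHS1-5, 7.11 ± 1.85 in sgGal4 and 3.94 ± 0.06 in WT. The ranges of the groups did not overlap, with 5.91 to 9.25 in sgGal4 at the top and 3.90 to 3.98 in WT at the bottom. EEF1A1 over EEF1G stayed closer, at 2.41 ± 0.24, 2.68 ± 0.02, 2.51 ± 0.10 and 2.53 ± 0.24 in sgHS2, sgHBG, sgHS1-5 and sgGal4, and 2.99 ± 0.03 in WT (SD, n = 3, WT n = 2). In sgGal4 2 and 3 the EEF1A1 to EEF2 ratio was 5.91 and 6.19, and EEF1A1 over EEF1G was 2.66 and 2.68. These ratios are descriptions and were not tested.

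The genes whose CPM followed that of EEF1A1 most closely over the 14 libraries were RPL3, HAUS4, DHRS7, RPL7A and PRKCSH, by the root mean square difference of centred log2 CPM among 9585 genes averaging at least 10 CPM. It was 0.08 for RPL3, a protein of the large ribosomal subunit, 0.09 for HAUS4, and 0.10 for DHRS7, for RPL7A and for PRKCSH. RPL3 averaged 4359 ± 643 CPM in sgHS2, 4404 ± 41.9 in sgHBG, 3595 ± 224 in sgHS1-5, 7006 ± 1912 in sgGal4 and 3403 ± 60.5 in WT. Among the elongation factor genes EEF1G ranked 7, EEF1B2 179, TPT1 1518, EEF1D 1610, EEF2 2673 and EEF1E1 6687. All points share the libraries and their depths.

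EEF1A2, the tissue-restricted form of eEF1A and not among the 7, showed a larger difference than any of them in the comparisons of sgGal4. It had 49.7, 69.7 and 47.8 CPM in sgHS2, 125, 130 and 129 in sgHBG, 99.5 to 142 in sgHS1-5, 422, 289 and 274 in sgGal4, and 64.5 and 67.5 in WT. The sgGal4 libraries were far above the rest. The log2 difference was -2.56 ± 0.20 in sgHS2 (adjusted p = 1.83e-06), -1.36 ± 0.19 in sgHBG (adjusted p = 0.00029) and -1.44 ± 0.19 in sgHS1-5 (adjusted p = 0.00011) against sgGal4, and 2.31 ± 0.23 in sgGal4 against WT (adjusted p = 5.67e-06). Without sgGal4 1 they were -2.34, -1.14, -1.21 and 2.09, all called. EEF1A2 was also higher than in WT in sgHBG (0.95 ± 0.21, adjusted p = 0.00407) and sgHS1-5 (0.88 ± 0.21, adjusted p = 0.00531), and the sgHS1-5 call was lost without WT 1 (adjusted p = 0.0504). In RPKM it was 0.406 ± 0.074% of EEF1A1 plus EEF1A2 in sgHS2, 0.818 ± 0.012% in sgHBG, 0.863 ± 0.165% in sgHS1-5, 1.37 ± 0.15% in sgGal4 and 0.445 ± 0.015% in WT.

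Other elongation and rescue factors, 13 genes with EEF1A2 among them, were mostly not called in the targeting groups. None was higher and 2, 2 and 4 were lower in sgHS2, sgHBG and sgHS1-5 than in sgGal4, and 5 were higher and 2 lower in sgGal4 than in WT. That left 11, 11 and 9 of the 13 not called against sgGal4, and the shares lower stand beside 15.6%, 12.6% and 20.2% of all genes. In sgGal4 against WT 22.7% of all genes were higher and 19.6% lower. Omitting sgGal4 1 gave 1, 1 and 0 higher and 2, 2 and 3 lower against sgGal4, and 4 higher and 2 lower in sgGal4 against WT. There the list's median log2 difference was 0.26 with that library and 0.095 without it. At that setting 14.1 to 26.6% of all genes were called in each direction. GTPBP2, a GTPase that helps rescue stalled ribosomes, averaged 148 ± 8.39 CPM in sgHS1-5, 304 ± 17.7 in sgGal4 and 542 ± 14.6 in WT. Its log2 difference was -1.04 ± 0.08 in sgHS1-5 against sgGal4 and -0.83 ± 0.09 in sgGal4 against WT (adjusted p = 1.44e-05). ABCF1 was lower in sgHS2 (-0.38 ± 0.12, adjusted p = 0.0332) and sgHBG (-0.38 ± 0.12, adjusted p = 0.0393) than in sgGal4. In sgHS1-5 against sgGal4, PELO, a ribosome rescue factor, was lower with a log2 difference of -0.38 ± 0.14 and EIF5A2, a form of the factor eIF5A, with -0.70 ± 0.15. Without sgGal4 1 the PELO difference was -0.28 and not called (adjusted p = 0.0870). VARS, the valyl-tRNA synthetase that binds eEF1, was higher in sgGal4 than in WT by 0.40 ± 0.14 (adjusted p = 0.0308), and EIF5A by 0.45 ± 0.16 (adjusted p = 0.0393), the second of which was lost without sgGal4 1 (0.24, adjusted p = 0.0571). EEF2K, the kinase that inhibits eEF2, was lower in sgGal4 than in WT (-0.68 ± 0.20, adjusted p = 0.0169) and was not called in the targeting groups against sgGal4. HBS1L, EEFSEC, GTPBP1, ABCF3 and EFTUD1 were called in none of these 4 comparisons with all libraries.

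Modifying enzymes of the factors gave 13 testable genes of 14. None was higher and 1, 2 and 4 were lower in sgHS2, sgHBG and sgHS1-5 than in sgGal4, and 4 were higher and 2 lower in sgGal4 than in WT. These shares stand beside the 12.1 to 22.7% of all genes called in each direction. Without sgGal4 1 the counts were 1, 0 and 0 higher and 1, 2 and 3 lower against sgGal4, and 4 higher and 3 lower in sgGal4 against WT. At that setting 14.1 to 26.6% of all genes were called in each direction. DPH2, an enzyme of the diphthamide modification of eEF2, averaged 59.2 ± 5.66 CPM in sgHS2, 55.8 ± 2.26 in sgHBG, 62.3 ± 4.06 in sgHS1-5, 75.1 ± 4.49 in sgGal4 and 28.8 ± 0.805 in WT. It was higher than in WT in all 4 guide groups, by 1.38 ± 0.11 in sgGal4 (adjusted p = 1.58e-06). DPH1, of the same pathway, was higher than in WT by 0.57 ± 0.13 in sgGal4 (adjusted p = 0.00343). DPH3, another diphthamide gene, was lower in sgHS1-5 than in sgGal4, at -0.66 ± 0.10 (adjusted p = 0.000337).

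The multi-tRNA synthetase complex, to which EEF1E1 belongs, had 10 tested genes beside it. Of these 1, 0 and 1 were higher and 5, 6 and 7 lower in sgHS2, sgHBG and sgHS1-5 than in sgGal4. Over all genes 14.5%, 12.1% and 20.3% were higher and 15.6%, 12.6% and 20.2% lower. In sgGal4 against WT 4 were higher and 2 lower, beside 22.7% and 19.6% of all genes. Without sgGal4 1 there were 1, 0 and 1 higher and 4, 6 and 7 lower against sgGal4, and 4 higher and 3 lower in sgGal4 against WT. At that setting 14.1 to 26.6% of all genes were called in each direction. MARS, the methionyl-tRNA synthetase that EEF1E1 binds, averaged 193 ± 13.4 CPM in sgHS1-5 and 676 ± 34.6 in sgGal4, a difference of -1.81 ± 0.09 (adjusted p = 5.74e-08). The sgHS2 and sgHBG cells had 666 ± 30.4 and 664 ± 4.19 CPM and were not called against sgGal4. EPRS was lower in sgHS1-5 than in sgGal4, with a log2 difference of -1.32 ± 0.12 (adjusted p = 5.94e-06) and IARS of -0.56 ± 0.11 (adjusted p = 0.00187).

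Ribosomal protein genes, the largest TOP group, were more often lower than higher against sgGal4. Of 77 tested, 1 was higher and 41 lower in sgHS2 than in sgGal4, 1 higher and 50 lower in sgHBG, and 1 higher and 63 lower in sgHS1-5. In sgGal4 against WT 57 were higher and 0 lower. Of all genes, 14.5%, 12.1% and 20.3% were higher and 15.6%, 12.6% and 20.2% lower against sgGal4. In sgGal4 against WT 22.7% were higher and 19.6% lower. The median log2 difference was -0.70, -0.79, -0.91 and 0.93 in these comparisons. Omitting sgGal4 1, the counts were 7 higher and 23 lower in sgHS2, 2 and 39 in sgHBG, and 1 and 53 in sgHS1-5. In sgGal4 against WT they were 52 and 3, and the medians in these comparisons were -0.23, -0.32, -0.41 and 0.42. At that setting 18.9%, 14.1% and 23.7% of all genes were higher and 19.1%, 14.1% and 22.3% lower against sgGal4. Against WT, 26.6% were higher and 24.4% lower in sgGal4. RPS27 averaged 1332 ± 133 CPM in sgHS1-5, 3448 ± 1560.4 in sgGal4 and 1106 ± 38.8 in WT, and RPL36A, at 2.34 ± 0.283 CPM in sgGal4, was the gene higher in all 3 targeting groups. RPS10, with 6.15 ± 2.11 CPM in sgGal4 and 1.07 ± 0.289 in WT, was higher in sgGal4 than in WT by 2.49 ± 0.33 (adjusted p = 7.13e-05). Both RPL36A and RPS10 lay far below RPS27 in CPM and rest on few reads. Whether the counts hold all their reads was not tested.

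Other TOP mRNAs, 11 genes, gave 0 higher and 3, 8 and 10 lower in sgHS2, sgHBG and sgHS1-5 against sgGal4. They gave 6 higher and 0 lower in sgGal4 against WT, and all these counts were the same with sgGal4 1 left out. They stand beside 12.1 to 22.7% of all genes called in each direction with all libraries, and 14.1 to 26.6% without sgGal4 1. PABPC1, the cytoplasmic poly(A)-binding protein, averaged 2313 ± 42.8, 2387 ± 13.6, 1875 ± 157 and 3101 ± 171 CPM in sgHS2, sgHBG, sgHS1-5 and sgGal4 and 2318 ± 63.3 in WT. Against sgGal4 the log2 differences were -0.42 ± 0.09 (adjusted p = 0.00415), -0.38 ± 0.09 (adjusted p = 0.0107) and -0.73 ± 0.09 (adjusted p = 8.77e-05). EIF3E, an eIF3 subunit, was also lower, at -0.51 ± 0.14, -0.63 ± 0.14 and -1.12 ± 0.15. EIF3F, another subunit, was lower in sgHBG (-0.79 ± 0.22, adjusted p = 0.0201) and sgHS1-5 (-1.36 ± 0.22, adjusted p = 0.000526).

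Initiation factors were called in both directions. Of 34 tested, 5, 4 and 3 were higher and 5, 10 and 12 lower in sgHS2, sgHBG and sgHS1-5 than in sgGal4, and 12 were higher and 7 lower in sgGal4 than in WT, beside the 12.1 to 22.7% of all genes called in each direction. Omitting sgGal4 1, there were 6, 4 and 6 higher and 4, 9 and 10 lower against sgGal4, and 13 higher and 8 lower in sgGal4 against WT. At that setting 14.1 to 26.6% of all genes were called in each direction. EIF2S3, the eIF2 subunit that binds initiator tRNA, averaged 625 ± 11.5 CPM in sgHS2, 415 ± 21.1 in sgGal4 and 901 ± 4.74 in WT, and was lower in sgGal4 than in WT, at -1.12 ± 0.09 (adjusted p = 1.58e-06). EIF4A2, a helicase of the cap-binding complex, was higher in sgGal4 than in WT by 1.53 ± 0.14 (adjusted p = 4.4e-06). EIF4H was higher in sgHS2 than in sgGal4 (0.30 ± 0.09, adjusted p = 0.0234) and lower in sgGal4 than in WT (-0.85 ± 0.10, adjusted p = 2.72e-05).

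The counts of the next lists stand beside 12.1 to 22.7% of all genes called in each direction, or 14.1 to 26.6% without sgGal4 1. A count of 1 among 4 or 5 genes is near those shares. Termination factors, 4 genes, gave 1, 0 and 1 higher and 0, 1 and 1 lower against sgGal4. In sgGal4 against WT 1 was higher (GSPT1, 0.30 ± 0.09, adjusted p = 0.0213), and the counts without sgGal4 1 were the same. In sgHS1-5 against sgGal4, ABCE1 was higher (0.41 ± 0.13, adjusted p = 0.0212) and ETF1, which reads stop codons, was lower (-0.22 ± 0.08, adjusted p = 0.0457). Mitochondrial elongation factors, 5 genes, gave 1 higher (GUF1) and 1 lower (TSFM) in each targeting group against sgGal4, and in sgGal4 against WT 1 higher (TSFM) and 1 lower (GUF1). TUFM was called in none of the 4, and was lower in sgGal4 than in WT without sgGal4 1 (-0.42, adjusted p = 0.00529). The counts without sgGal4 1 were 1, 1 and 1 higher and 1, 1 and 2 lower against sgGal4, and 1 higher and 2 lower in sgGal4 against WT. Abundant genes outside translation, 16 in all, gave 4, 3 and 6 higher and 0, 1 and 2 lower against sgGal4, and 3 higher and 2 lower in sgGal4 against WT. Without sgGal4 1 there were 8, 5 and 6 higher and 0, 1 and 1 lower against sgGal4, and 3 higher and 5 lower in sgGal4 against WT. LDHA, the lactate dehydrogenase subunit, was higher in sgHS1-5 than in sgGal4 by 2.00 ± 0.09 (adjusted p = 4.34e-08). PKM, a pyruvate kinase, was higher than in sgGal4 by 1.10 ± 0.11 in sgHS2, 0.50 ± 0.11 in sgHBG and 0.96 ± 0.11 in sgHS1-5. HSPA8, a heat shock cognate chaperone, was higher in sgGal4 than in WT by 2.18 ± 0.12 (adjusted p = 3.82e-08).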

How the data were processed

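RNA-seq libraries of K562 cells were made from total RNA with the TruSeq RNA v2 kit, per the labels' protocols. The submitters' processing notes name TopHat, Cufflinks, DESeq and hg19, with no version or role; the counting tool and annotation are not given in the sources used here. The authors deposited a table of raw read counts per gene (24729 genes) and a table of RPKM per gene (25268 genes), for all 14 libraries.

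Counts were tested with edgeR 4.0.16 in R 4.3.3 (filterByExpr, minimum count 10 and total 15, TMM, quasi-likelihood F test, all 5 groups in 1 fit, 9 residual degrees of freedom, common dispersion 0.0323). P-values were adjusted by the Benjamini-Hochberg method over 14406 genes, and a gene was called below 0.05. limma 3.58.1 and DESeq2 1.42.0 were alternatives. Transcript length was implied from counts and RPKM. A share of reads has a 95% Wilson interval; a count of 0 allows up to 3 reads, 0.265 to 0.527 CPM, covering counting error only. Whether replicate numbers pair the libraries is not known. Of 26 same-numbered pairs, deviations from group means correlated between -0.52 and 0.35, and 1 pair was over 0.1. Group means rest on 2 or 3 libraries, and the extremes of either sign were between sgHS2 and sgGal4, so this cannot settle it. Within groups, counts of replicates differed by a chi-square per degree of freedom of 1.24 to 87.6, and every library was kept as its own replicate.

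The 7 genes, the other gene lists and the tests were chosen with earlier results of these data known. Named were all 7 genes, the 3 genes per list with the lowest p over the 5 groups, all other elongation factors tested and the 5 genes most like EEF1A1. Sequences are RefSeq's. Those of 6 of the 7 genes, at 7 starts, are used, and EEF1D, on chromosome 8, was left out. The fits were tested on simulated data.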

Additional observations from a re-analysis of the deposited data

Results flagged for a closer look

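The effect on TPT1 differed between guide populations when their libraries were compared directly. It was lower in sgHS1-5 than in sgHBG, with a log2 difference of -0.65 (edgeR adjusted p = 0.0256), with 2038, 2468 and 2068 CPM in sgHS1-5 and 3608, 3363 and 3319 CPM in sgHBG. It was lower in sgHS1-5 than in sgHS2, at -0.77 (adjusted p = 0.00712), with 3 of 3 sgHS1-5 libraries below every sgHS2 library. The call against sgHBG was lost when any sgHBG library, sgHS1-5 1 or sgHS1-5 3 was left out (adjusted p from 0.0589 to 0.0950). Over 21 alternative settings, these among them, it was lost in 7, with log2 differences from -0.75 to -0.60. Groups of 2 or 3 libraries are too small for a test of single outlying libraries.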

How the results depend on the processing

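Over 70 results, 10 comparisons of the 7 genes, 1442 alternative values were computed; 1290 kept direction and side of the threshold, 66 lost a call, 79 gained one and 7 reversed. The 4 EEF1A1 results kept both with other size factors, library sizes without EEF1A1, other filters, DESeq2, voom, length offsets and RPKM with a filter. With 1 library left out they ranged from -0.89 to -0.48 in sgHS2, -0.82 to -0.42 in sgHBG and -1.21 to -0.81 in sgHS1-5 against sgGal4, and from 0.68 to 1.09 in sgGal4 against WT. Fits of only the 2 compared groups, with fewer libraries, did not call 3 of them: -0.74 (adjusted p = 0.171) in sgHS2, -0.68 (0.161) in sgHBG and 0.96 (0.135) in sgGal4 against WT. RPKM plus 1 without a filter called none: -0.75 (adjusted p = 0.701), -0.64 (0.769), -0.94 (0.467) and 0.79 (0.698); the cause was not tested. With a replicate block, though it is not known whether the numbers pair the libraries, all 4 EEF1A1 results were called. They were -0.74 (adjusted p = 0.0133), -0.68 (0.0253), -1.07 (0.00157) and 0.99 (0.00428). EEF2 lost its calls in sgHS1-5 against sgGal4 (0.0542) and sgHBG against WT (0.0798) with this block. In sgHS2 20 rather than 41 ribosomal protein genes were lower than in sgGal4, beside 1999 rather than 2249 of all 14406 genes. Reversals: EEF1E1 in sgHBG against sgGal4 ranged from -0.21 to 0.39 with 1 library left out and was 0.34 with length offsets, 0.39 without sgGal4 1, 0.39 without sgGal4 1 and sgHS2 2, and 0.39 also without sgHS1-5 2 and 3. EEF1D in sgGal4 against WT was -0.32 without sgGal4 1 and sgHS2 2 and -0.32 without all 4 libraries, and EEF1G in sgHS2 against sgHBG was -0.068 without all 4. The lengths implied for EEF1E1 (186), TPT1 (5382), EEF2 (3466) and EEF1G (1371) lie outside their coding transcript lengths in GENCODE, which limits their length offsets.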
